A study of Mus musculus with 10 samples.

Results

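The genes described here are the 4 CDC-like kinases Clk1, Clk2, Clk3 and Clk4, the 2 L-type cyclins Ccnl1 and Ccnl2, and the SR protein kinases Srpk1 and Srpk2. They were found by symbol in the deposited table of gene counts, which held all 8 among 55487 genes, and all 8 were among the 18957 genes that passed the filter on low counts. They were chosen by their log2 fold changes at 8 weeks of diabetes, for a rise at that time. Their differences between the 8-week group and the other groups are therefore given as a description without a test, and the 4-week group against its controls is the contrast in which they were tested. The RNA came from viable GFP-positive cells, sorted by flow cytometry from the papain-digested retinas of perfused mice, with both eyes of an animal pooled. Every animal, controls included, was Cx3cr1GFP/+, which means that 1 copy of the fractalkine receptor gene carries a GFP reporter in place of its own coding sequence. The reporter is active in microglia and also in other myeloid cells. The 3 groups were 8wk STZ (n = 4, 8 weeks after streptozotocin, a toxin of pancreatic beta cells that makes mice diabetic), 4wk STZ (n = 3, 4 weeks after it) and Control (n = 3, littermates). The labels give neither the age and sex of the animals nor the dose of streptozotocin, so age cannot be told apart from the time after the drug. Libraries were made from full-length cDNA by a kit that does not mark strand.

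SR proteins are RNA-binding splicing factors with tails rich in arginine and serine, and the phosphates on those tails set where they sit and whether they act. SRPK1 and SRPK2 work mainly in the cytoplasm, where they phosphorylate SR proteins so that these enter the nucleus. CLK1 to CLK4 work in the nucleus, add further phosphates and release SR proteins from nuclear speckles, the storage sites of splicing factors. Cyclins L1 and L2 carry such an arginine-serine tail themselves and are the partners of CDK11, another kinase that acts on splicing. In cultured mouse and human cells, part of the Clk1 transcripts is known to stay in the nucleus with introns unspliced and to be completed when CLK activity falls or under stress. The counts used here are per gene and do not separate spliced from unspliced forms.

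The libraries held 46143178 to 62903489 reads in 8wk STZ, 33266838 to 49051036 in 4wk STZ and 45656309 to 54312248 in Control, and the 8 genes had 383 to 9432 reads each in a library. All 12 microglial markers checked were present in every group, with a summed level of 43830 to 47860 CPM (read counts scaled to a common library size, with the trimmed mean of M values, TMM) in 8wk STZ, 44120 to 50170 in 4wk STZ and 52140 to 55980 in Control. Markers of other cells differed between the groups as well. The 16 rod markers took 0.503 to 0.659% of reads in 8wk STZ, 0.725 to 1.03% in 4wk STZ and 1.31 to 1.45% in Control, with none at 0 in any group. The 15 markers of inner retinal neurons summed to 69.0 to 106.7 CPM in 8wk STZ, 171.3 to 191.4 in 4wk STZ and 186.1 to 225.5 in Control. The 10 markers of Müller glia and astrocytes summed to 5977 to 20130 CPM in 8wk STZ, 3529 to 6322 in 4wk STZ and 2828 to 5794 in Control. Without Apoe, which microglia also express, they summed to 659.9 to 960.4, 1098 to 1260 and 925.2 to 1380 CPM in the same groups. The 8 border macrophage markers ranged from 62.4 to 666.3 CPM in 8wk STZ, 156.9 to 420 in 4wk STZ and 146.2 to 437.8 in Control, with Cd209f at 0 in all 3 groups. Monocyte and neutrophil, T and NK cell, vascular and erythroid lists each summed to at most 64.5 CPM in any library. Transcripts of the mitochondrial genome took 0.926 to 1.35% of reads in 8wk STZ, 1.82 to 2.63% in 4wk STZ and 1.84 to 2.13% in Control. After thinning to the lowest total, 8wk STZ libraries held 23227 to 24361 genes with a read, 4wk STZ libraries 22454 to 23322 and Control libraries 22251 to 22365. The part of these differences in the levels of the 8 genes was not tested, and in bulk RNA fewer cells of a type and less RNA per cell cannot be told apart.

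At 8 weeks, Ccnl1, Clk4 and Clk1 stood furthest above Control, Ccnl2 and Srpk1 less so, and Srpk2 did not stand above it. For 6 of the 8 genes every 8wk STZ library was above every Control library, a separation also seen in 8.91% of all tested genes, with the opposite one in 7.99%. By edgeR's quasi-likelihood test, 2.37% of all genes differed at an adjusted p below 0.05. Since the genes were chosen for this difference, nothing is read from that count. Their median log2 fold change was 0.62, against a median of -0.01 over all genes tested. Without Control 3 and 4wk STZ 3, the values of Ccnl1, Clk4 and Clk1 were 1.7, 1.09 and 1.02, and those of the other 5 genes lay between -0.16 and 0.67. Together the 8 genes took 0.0494 to 0.0675% of reads in 8wk STZ, 0.0345 to 0.0366% in 4wk STZ and 0.0303 to 0.0366% in Control.

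**Figure D1:**
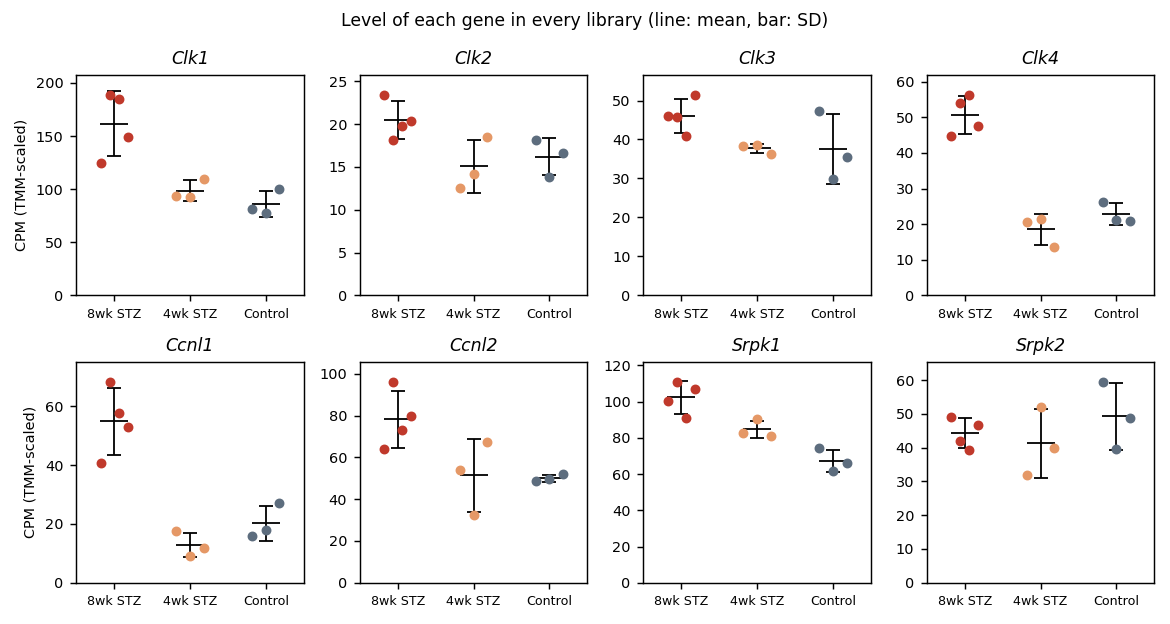
TMM-scaled CPM (y axis) of each of the 8 genes in every library, grouped as 8wk STZ, 4wk STZ and Control (x axis). Points are libraries, horizontal lines are group means and bars are SD. In Clk1, Clk4 and Ccnl1 every 8wk STZ library lies above all libraries of the other groups, whereas the 3 groups of Srpk2 overlap.

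Ccnl1, which codes for cyclin L1, had the largest difference among the 8. It stood at 40.8, 68.3, 57.7 and 53.0 CPM in the 8wk STZ libraries, at 17.4, 9.20 and 11.9 CPM in the 4wk STZ libraries and at 15.9, 18.0 and 27.0 CPM in the Control libraries. No 8wk STZ library overlapped with another group, and Control 3 was the highest of the other 6. The means were 54.9 ± 11.4 CPM in 8wk STZ and 20.3 ± 5.92 in Control (SD, n = 4 and 3), a log2 fold change of 1.44, which was 1.7 without Control 3. Against 4wk STZ, at 12.9 ± 4.2 CPM (n = 3), the log2 fold change was 2.10. The gene lies on chromosome 3 (GRCm38, 65946151 to 65958249, minus strand). An antisense gene, Gm37305, overlaps 7.37% of its exonic sequence. Reads of the pair cannot be told apart without strand, and the part of Gm37305 in the Ccnl1 counts was not tested. The reads counted for Gm37305 came to 0.434 ± 0.301 CPM in 8wk STZ, 1.54 ± 2.20 in 4wk STZ and 1.59 ± 1.30 in Control.

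Ccnl2, which codes for cyclin L2, shared the direction with a smaller difference. It was at 64.2, 96.1, 73.0 and 79.6 CPM in 8wk STZ, at 54.0, 32.6 and 67.5 CPM in 4wk STZ and at 48.7, 49.6 and 51.9 CPM in Control. All 8wk STZ libraries were above all Control libraries, while 4wk STZ 3 lay among the 8wk STZ values. The mean was 78.2 ± 13.5 CPM in 8wk STZ (n = 4) and 50.1 ± 1.62 in Control (n = 3), a log2 fold change of 0.64. The gene lies on chromosome 4 (155812489 to 155824543, plus strand), and no other annotated gene overlaps it. It shared no 50-base stretch with transcripts of other genes.

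Clk4 separated the 8wk STZ libraries as clearly as Ccnl1 did. This kinase stood at 44.9, 54.0, 56.4 and 47.5 CPM in 8wk STZ, at 20.8, 21.4 and 13.6 CPM in 4wk STZ and at 26.3, 21.2 and 20.8 CPM in Control. The lowest 8wk STZ library was well above the highest of the other 6. The mean of 50.7 ± 5.40 CPM in 8wk STZ (n = 4) compared with 22.8 ± 3.07 CPM in Control (n = 3), a log2 fold change of 1.15. Against 4wk STZ, at 18.6 ± 4.33 CPM (n = 3), it was 1.45. Clk4 lies on chromosome 11 (51261730 to 51281766, plus strand). The small RNA gene Gm25082 shares 1.02% of its exonic sequence and had at most 17 reads in a library.

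Clk1, the most abundant of the 8 genes, showed the next largest difference. It had 124.2, 189, 184.7 and 149.2 CPM in 8wk STZ, 93.8, 92.6 and 109.7 CPM in 4wk STZ and 81.7, 77.4 and 100.4 CPM in Control. The 8wk STZ libraries did not overlap with either group, and 8wk STZ 1 lay nearest to 4wk STZ 3. The mean was 161.8 ± 30.8 CPM in 8wk STZ (n = 4) and 86.5 ± 12.2 in Control (n = 3), a log2 fold change of 0.90. Clk1 lies on chromosome 1 (58410189 to 58424066, minus strand) and overlaps no annotated gene. Clk1 and Clk4 are close paralogs as proteins, yet neither shared a 50-base stretch of transcript with the other, and Clk1 shared 0.0711% of its stretches of that length with any other gene.

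The other CDC-like kinases differed little. Clk2 was at 23.4, 18.1, 19.8 and 20.4 CPM in 8wk STZ, at 12.5, 14.1 and 18.5 CPM in 4wk STZ and at 18.1, 13.8 and 16.6 CPM in Control. Its 8wk STZ values lay just above the Control values and overlapped with 4wk STZ (log2 fold change 0.34 against Control). Clk3 was at 46.0, 45.8, 41.0 and 51.5 CPM in 8wk STZ, at 38.3, 38.5 and 36.3 CPM in 4wk STZ and at 47.4, 29.8 and 35.4 CPM in Control. Control 1 lay among its 8wk STZ values (log2 fold change 0.30 against Control, or 0.50 without Control 1 and 0.15 without Control 2). Clk2 lies on chromosome 3 (89164795 to 89176921, plus strand) and Clk3 on chromosome 9 (57750624 to 57765860, minus strand). Edc3, an mRNA decapping factor gene on the opposite strand, overlaps 15.2% of the exonic sequence of Clk3. It stood at 44.8 ± 4.10 CPM in 8wk STZ, 53.8 ± 5.45 in 4wk STZ and 57.7 ± 6.75 in Control (n = 4, 3 and 3). Without strand, reads of the stretch shared by Edc3 and Clk3 cannot be told apart. Their part in the Clk3 counts was not tested.

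The SR protein kinases parted from each other. Srpk1 was at 100.3, 110.9, 90.8 and 107.1 CPM in 8wk STZ, at 82.8, 90.2 and 81.1 CPM in 4wk STZ and at 74.2, 61.7 and 65.9 CPM in Control. The groups did not overlap at any step, with 8wk STZ highest and Control lowest (log2 fold change 0.61 between these). Srpk2 was at 49.1, 42.0, 39.4 and 46.8 CPM in 8wk STZ, at 31.8, 52.0 and 40.0 CPM in 4wk STZ and at 59.5, 39.6 and 48.7 CPM in Control. All its groups overlapped. Its log2 fold change against Control was -0.15 at 8 weeks and moved to 0.0039 without Control 1. Srpk1 lies on chromosome 17 (28587648 to 28622709, minus strand) and Srpk2 on chromosome 5 (23503264 to 23684617, minus strand). Kmt2e, a chromatin regulator gene on the opposite strand, overlaps 6.99% of the exonic sequence of Srpk2. It had 200.4 ± 14.8 CPM in 8wk STZ, 162.3 ± 16.9 in 4wk STZ and 168.4 ± 44.2 in Control (n = 4, 3 and 3). Here too, reads of the shared stretch cannot be told apart without strand. The part of Kmt2e in the Srpk2 counts was not tested.

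**Figure D2:**
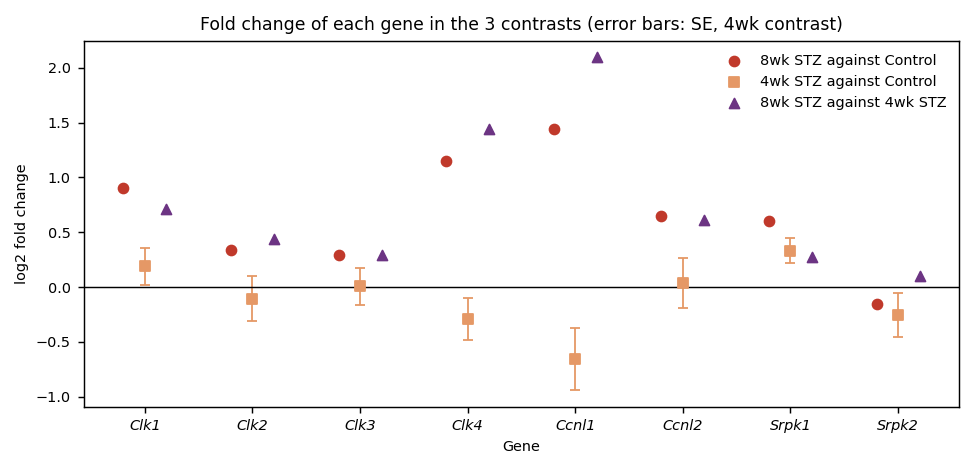
Log2 fold change (y axis) of each gene (x axis), with circles for the 8-week group over Control, squares for the 4-week group over Control and triangles for the 8-week over the 4-week group. Points are fitted values, and error bars, shown for the 4wk STZ contrast, are standard errors. The 4wk STZ values lie between -0.66 and 0.33 with no value called, and Ccnl1 has the largest 8wk STZ values in both contrasts.

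Against 4wk STZ, all 8 genes had a log2 fold change above 0 at 8 weeks, from 0.10 for Srpk2 to 2.10 for Ccnl1, with a median of 0.52 against -0.00045 over all genes tested. That of Srpk2 was -0.05 without 4wk STZ 1, and that of Ccnl2, at 0.61, was 0.37 without 4wk STZ 2. The 8wk STZ and 4wk STZ libraries did not overlap for 5 of the 8, against 8.39% of all tested genes, with 6.97% apart in the opposite direction. At an adjusted p below 0.05, 0.918% of all genes differed, with 0.396% of all genes higher in 8wk STZ. Those apart among the 8 were Clk1, Clk3, Clk4, Ccnl1 and Srpk1, the last by no more than 90.8 against 90.2 CPM. The 8 weeks against 4 weeks and 8 weeks against Control contrasts share the 8wk STZ libraries, and the values are set side by side as a description.

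At 4 weeks none of the 8 genes differed from Control by edgeR's quasi-likelihood test, in which 0% of all 18957 tested genes passed at an adjusted p below 0.05, while 1849 genes (9.75%) had an unadjusted p below 0.05. The likelihood ratio test of edgeR called 244 genes and DESeq2 314, none of them among the 8. The authors' deposited table lists 116 genes with a false discovery rate below 0.05 in this contrast and gives Ccnl1, the lowest among the 8, a rate of 0.317. The log2 fold changes ran from -0.66 to 0.33, with a median of -0.05 against -0.0039 over all genes tested, and 4 genes on either side of 0. Ccnl1 averaged 12.9 ± 4.2 CPM in 4wk STZ, against 20.3 ± 5.92 CPM in Control (n = 3 each, log2 fold change -0.66, SE 0.281, adjusted p = 0.487 by edgeR's quasi-likelihood test). Its groups overlapped, and the log2 fold change was -0.39 without Control 3 and -0.34 without both Control 3 and 4wk STZ 3. Srpk1 was the 1 gene whose 4wk STZ libraries all lay above Control, at 84.7 ± 4.86 against 67.3 ± 6.33 CPM (n = 3 each, log2 fold change 0.33, SE 0.114, adjusted p = 0.383 by the same edgeR test). Such a separation was found in 6.07% of all tested genes, and the opposite one in 6.25%. Clk4 had a log2 fold change of -0.29 (SE 0.193), Clk1 of 0.19 (SE 0.167) and Srpk2 of -0.26 (SE 0.200), and those of Clk2, Clk3 and Ccnl2 lay between -0.11 and 0.04. Their adjusted p in edgeR's quasi-likelihood test ran from 0.695 to 0.995. With 1 library left out, the value of Clk4 ran from -0.41 without 4wk STZ 2 to -0.11 without 4wk STZ 3, that of Clk1 from 0.11 without 4wk STZ 3 to 0.31 without Control 3, and that of Srpk2 from -0.46 without 4wk STZ 2 to -0.10 without 4wk STZ 1.

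Read per length, the order of the genes changed mainly through Ccnl1 and Clk4. CPM was divided by the kilobases of exonic sequence in the annotation, which runs from 5.28 kb for Ccnl2 to 13.9 kb for Srpk2. This length joins the exons of all annotated transcripts, those with retained introns included. It can exceed the mRNA length to a different degree in each gene, so the order between genes depends on this divisor. In every group Clk1 was the highest, at 19.9 ± 3.78 CPM per kb in 8wk STZ, 12.1 ± 1.18 in 4wk STZ and 10.6 ± 1.5 in Control, followed by Ccnl2 at 14.8 ± 2.56, 9.73 ± 3.33 and 9.48 ± 0.307 (n = 4, 3 and 3). The libraries of these 2 neighbours in the order overlapped in each group. Ccnl1 held the third place in 8wk STZ at 9.16 ± 1.90 CPM per kb, the last place in 4wk STZ at 2.14 ± 0.701 and the place before the last in Control at 3.38 ± 0.987. In 8wk STZ it overlapped with Clk4, the next in order at 8.74 ± 0.932, and Clk4 overlapped with Srpk1 at 8.27 ± 0.714. Srpk1, Clk3, Clk4, Srpk2, Ccnl1 and Clk2 followed each other in Control from 5.43 ± 0.512 to 3.06 ± 0.407 CPM per kb, and no 2 neighbours among them were apart beyond their ranges. In 8wk STZ, Clk3 (5.45 ± 0.510) lay below Srpk1 and above Clk2 (3.86 ± 0.417) without overlap, and Clk2 overlapped with Srpk2 (3.19 ± 0.318), the lowest.

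**Figure D3:**
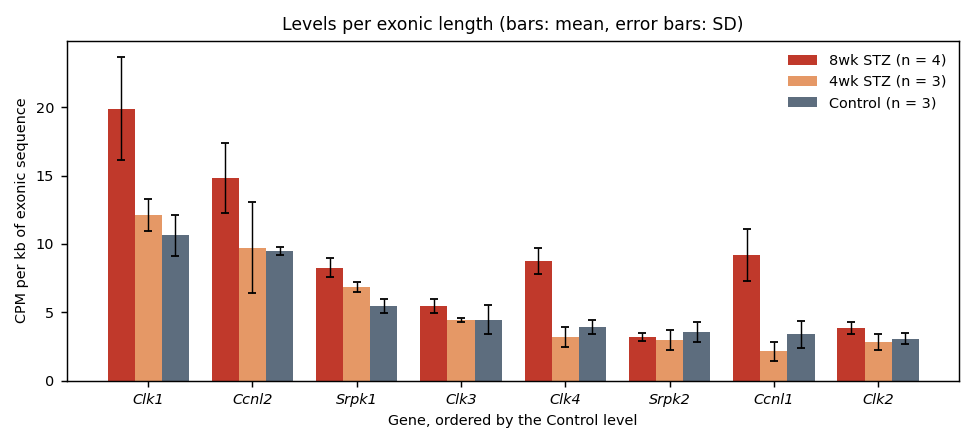
Mean level per exonic length (y axis, CPM per kb) of the 8 genes (x axis, ordered by the Control level), with bars for 8wk STZ, 4wk STZ and Control and error bars for SD. The length joins the exons of all annotated transcripts. On this scale Clk1 and Ccnl2 are highest in all groups, and in 8wk STZ Ccnl1 and Clk4 reach the level of Srpk1.

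Ratios within each pair of related genes do not depend on the scaling of the libraries. Per exonic length, Ccnl1 stood to Ccnl2 at 0.559, 0.625, 0.695 and 0.586 in the 8wk STZ libraries, at 0.284, 0.248 and 0.155 in 4wk STZ and at 0.286, 0.319 and 0.458 in Control. The 8wk STZ ratios lay above those of both other groups. Those of 4wk STZ lay below Control by no more than 0.284 against 0.286. How often other pairs of genes separate in this way was not computed. Srpk1 stood to Srpk2 at 2.61 ± 0.275 in 8wk STZ, 2.38 ± 0.496 in 4wk STZ and 1.56 ± 0.178 in Control (n = 4, 3 and 3). Clk4 stood to Clk1 at 0.445 ± 0.0449, 0.269 ± 0.0831 and 0.376 ± 0.0808 in the same groups. For 4wk STZ against Control, a two-sided exact permutation test of the 3 ratios gave p = 0.1 for both Ccnl1 over Ccnl2 and Srpk1 over Srpk2, which is the smallest p that 3 against 3 libraries allow, and p = 0.3 for Clk4 over Clk1 (0.15, 0.15 and 0.3 after Benjamini-Hochberg adjustment over the 3 ratios). Where 3 against 3 libraries do not overlap, this test can give no other p than 0.1. These ratios were chosen after the levels were seen, so nothing is read from their p-values.

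Within the 8wk STZ group the genes did not share 1 order of libraries. 8wk STZ 1 was the lowest of the 4 for Clk1, Clk4, Ccnl1 and Ccnl2 but the highest for Clk2 and Srpk2. 8wk STZ 2 was the highest for Clk1, Ccnl1, Ccnl2 and Srpk1. The coefficient of variation over the 4 libraries was 20.7% for Ccnl1, 19.0% for Clk1 and 17.3% for Ccnl2, and 8.64% to 10.8% for the other 5 genes.

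All 8 genes share a feature that did not enter their choice. In the GENCODE vM21 annotation of GRCm38 each has at least 1 transcript classed as retained intron and at least 1 classed as a target of nonsense-mediated decay, the pathway that degrades transcripts with early stop codons. Of 22028 protein-coding genes, 41.4% have a transcript of the first class, 20.8% of the second and 14.9% of both. These shares cover all annotated protein-coding genes, whether or not they passed the filter on low counts, which all 8 genes passed. Shares among genes with as many annotated transcripts were not computed. Ccnl1 has 8 retained-intron and 5 decay transcripts among 14, with 1 protein-coding transcript. Clk1 has 7 and 2 among 13, also with 1 protein-coding transcript, and Clk4 has 7 and 3 among 14. The fewest were annotated for Ccnl2, with 3 and 1 among 5, and for Srpk2, with 3 and 1 among 10. These counts describe the annotation and not the libraries.

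The promoters of Ccnl1 and Clk4 are printed because these 2 genes differed most between the diabetic groups and because, among the promoter windows examined, theirs alone hold the full cyclic AMP response element. RefSeq promoter windows of GRCm38.p6, running from 250 bases before to 50 bases after a transcription start, were matched for 7 of the 8 genes, all but Clk1 (9 windows). Capitals mark the element, TGACGTCA, which reads the same on both strands. The Ccnl1 window is chr3:65958200-65958499 on the minus strand and the Clk4 window is chr11:51262864-51263163 on the plus strand.
Ccnl1: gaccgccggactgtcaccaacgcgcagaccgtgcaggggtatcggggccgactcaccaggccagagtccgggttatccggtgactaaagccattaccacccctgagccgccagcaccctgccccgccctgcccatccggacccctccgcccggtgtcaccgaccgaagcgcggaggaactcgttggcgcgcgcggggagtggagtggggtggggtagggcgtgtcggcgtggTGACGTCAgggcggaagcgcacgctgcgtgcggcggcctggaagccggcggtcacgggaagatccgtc
Clk4: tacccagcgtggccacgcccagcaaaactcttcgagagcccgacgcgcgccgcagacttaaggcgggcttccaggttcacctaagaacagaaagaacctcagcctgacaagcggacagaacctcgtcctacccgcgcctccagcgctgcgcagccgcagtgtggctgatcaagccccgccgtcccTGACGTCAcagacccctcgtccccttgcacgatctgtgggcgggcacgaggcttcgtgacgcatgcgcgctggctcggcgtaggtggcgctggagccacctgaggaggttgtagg
The element begins 18 bases before the RefSeq start of Ccnl1 and 65 bases before that of Clk4. The RefSeq start of Clk4 lies inside the GENCODE bounds of the gene given above, downstream of their first base. It is present in 1.79% of all 32851 promoter windows of the same length. Of the other motifs searched on both strands, the GC box (GGGCGG) was found for all 7 genes, in at least 1 of their windows, and in 35.7% of all windows. The ETS core (CCGGAAG) was found for Clk3 and Ccnl2 and in 8.86% of all windows, and the E-box (CACGTG) for Clk2 and in 7.15%. The CCAAT box (CCAAT) was found for Clk2, Ccnl2 and Srpk2 and in 37.4% of all windows. The letters of the TATA box (TATAAA) were found for Srpk2 and in 13.6%. In Srpk2 they read TTTATA and begin 26 bases after the start of a window, not before it. The heat shock element was in none of the 9 windows and in 0.603% of all. The cyclic AMP response element and a GC box lie side by side in Ccnl1 without overlap. These matches describe the letters of the windows and no binding was measured. The cyclic AMP response element was 1 of several motifs searched, and the 2 printed windows were picked with its matches known. Whether it goes with the levels of the genes was not tested.

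The SR proteins, the substrates of these kinases, had 1 gene that passed at 8 weeks. Of 13, 12 were tested, of which 1 rose and none fell, beside 0.971% and 1.4% of all genes tested. Their median log2 fold change was 0.32, and 11 of 12 lay above 0. Srsf2, an SR protein that itself binds exonic enhancers, stood at 149.4, 243.9, 213.7 and 178.3 CPM in 8wk STZ, against 36.2, 31.6 and 34.5 CPM in Control, a log2 fold change of 2.53 with an SE of 0.211 (adjusted p = 0.000392, edgeR). Its 4wk STZ libraries were at 48.4, 29.0 and 42.9 CPM, and 8wk STZ differed from 4wk STZ as well (log2 fold change 2.29, adjusted p = 0.00217, edgeR). Like Clk1, Ccnl1 and Ccnl2, Srsf2 was lowest in 8wk STZ 1 and highest in 8wk STZ 2 within that group. This was not particular to them, since Son, Rbm25 and Malat1 of the speckle list had it too, while Srsf11 did not. Malat1 lay below Control at 8 weeks. How many of all genes share this trait was not computed. Overlapping genes were looked for around the 8 genes only. Without strand, reads of any gene overlapping Srsf2 could not be told apart, and their part in its counts was not tested. Srsf5 and Srsf11, named after their values were seen, were at 0.69 and 0.61 on the log2 scale without passing (adjusted p = 0.119 and 0.0908, edgeR's quasi-likelihood test, against 0.0135 and 0.0115 with DESeq2).

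Among 11 other kinases of splicing and transcription, 1 rose and none fell at 8 weeks, with a list median of 0.13. The median was 0.0096 without Control 3 and 0.33 without Control 1. The gene that rose was Cdk11b, the catalytic partner of the L-type cyclins, at 63.6, 57.9, 60.3 and 60.3 CPM in 8wk STZ, against 35.6, 36.9 and 29.5 CPM in Control, a log2 fold change of 0.83 with an SE of 0.138 (adjusted p = 0.0131, edgeR). It was at 47.7, 60.5 and 43.6 CPM in 4wk STZ, all above Control and with 4wk STZ 2 among the 8wk STZ values (adjusted p = 0.275 against Control and 0.441 for 8wk STZ against 4wk STZ, edgeR). None of the 5 other transcriptional cyclins passed by edgeR's quasi-likelihood test, and their median was -0.20, or -0.10 without Control 1. The 2 most abundant were Ccnt2, at 75.9 ± 12.3 CPM in 8wk STZ and 49.9 ± 6.18 in Control (log2 fold change 0.60, adjusted p = 0.103, against 0.0193 with DESeq2), and Ccnt1, at 53.6 ± 8.61 and 63.3 ± 7.85 (log2 fold change -0.24, adjusted p = 0.485, edgeR, n = 4 and 3). Both encode partners of CDK9, which releases paused RNA polymerase II.

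Of 15 nuclear speckle genes, 1 rose and none fell at 8 weeks, with a median of 0.39 and 12 above 0. Bclaf1, which codes for a speckle protein with arginine-serine repeats, had 127.7, 138.8, 114.4 and 122.7 CPM in 8wk STZ, against 73.0, 70.1 and 72.9 CPM in Control (log2 fold change 0.81, adjusted p = 0.0155, edgeR, and 0.0509, 0.058 and 0.0518 without Control 1, 2 or 3). Malat1, the long RNA of speckles that stays in the nucleus, was at -0.61 on the log2 scale (adjusted p = 0.0559, edgeR's quasi-likelihood test, and 0.00149 with DESeq2), the lowest of the list. Of 10 genes of nonsense-mediated decay, 1 rose and none fell, with a median of 0.21. Smg1, the kinase of that pathway, stood at 33.8, 54.6, 56.0 and 53.2 CPM in 8wk STZ, against 29.0, 13.8 and 21.6 CPM in Control (log2 fold change 1.2, adjusted p = 0.0332, edgeR). It was called in 3 of the 10 fits that left out 1 library, those without Control 1, 4wk STZ 3 or 8wk STZ 1, and its adjusted p was 0.0973 without Control 3 (edgeR).

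Heat shock and immediate early genes respond to stress and to tissue dissociation. Of 12 heat shock genes, 1 fell and none rose, with a median of -0.16, which was 0.02 without Control 2, -0.08 without 8wk STZ 3 and -0.28 without 8wk STZ 4. Hsp90aa1, an inducible chaperone, was at 97.8, 92.9, 112.9 and 93.3 CPM in 8wk STZ, against 174, 203 and 142.2 CPM in Control (log2 fold change -0.80, adjusted p = 0.0105, edgeR). Of 15 immediate early genes, 1 rose and none fell, with a median of 0.53 and 13 above 0. Zfp36, which codes for an mRNA-destabilising protein, was at 726.5, 572.7, 711.3 and 657.4 CPM in 8wk STZ, against 397, 264.7 and 285.3 CPM in Control (log2 fold change 1.08, adjusted p = 0.0171, edgeR, and 0.0651, 0.0669 and 0.0511 without Control 2, Control 3 or 8wk STZ 3). Fos, an early gene of activation named after its values were seen, differed by 1.85 on the log2 scale and did not pass (adjusted p = 0.0989, edgeR's quasi-likelihood test, and 0.0191 without Control 1). At 4 weeks no gene of these 7 lists passed by edgeR's quasi-likelihood test. For 8wk STZ against 4wk STZ, Srsf2 and 1 further gene passed, Smg5 of the decay list, at 62.9 ± 9.40 CPM in 8wk STZ and 29.9 ± 7.70 in 4wk STZ (n = 4 and 3, log2 fold change 1.07, adjusted p = 0.035, edgeR). Its adjusted p was 0.117 without 4wk STZ 3, and it stayed below 0.05 in the fits without Control 1 or Control 3 alone among those that left out 1 library. Smg5 was named after its values were seen.

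**Figure D4:**
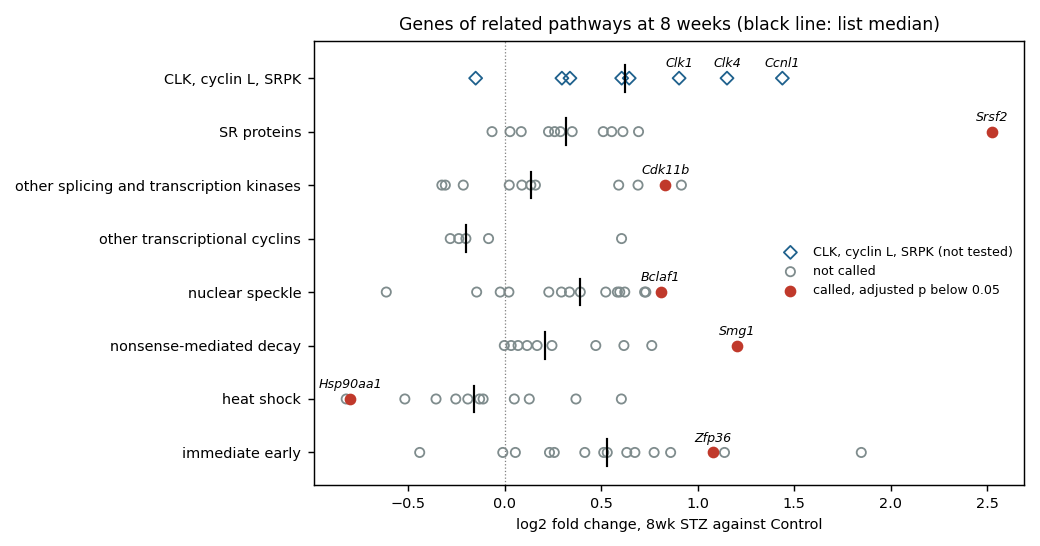
Log2 fold change of 8wk STZ against Control (x axis) for the 8 genes and for 7 lists of related genes (rows). Diamonds are the 8 genes, shown without a test, filled circles are list genes called at an adjusted p below 0.05 by edgeR, open circles are list genes not called and black lines are medians. Each list has at most 1 called gene, and Srsf2 at 2.53 lies furthest from 0.

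The profiles over the 10 libraries give the genes most like Clk1 and Ccnl1. Likeness was the root mean square difference of log2 CPM, each gene centred on its own mean, among 6570 candidate genes whose log2 CPM averaged 4 or more. The nearest to Clk1 was Adap2os at 0.115, against a median of 0.50 over all candidates. It was followed by Zc3h7a (0.152), Rbm25 (0.157), Tmem199 (0.158) and Zfp263 (0.164). Rbm25, a splicing regulator on the speckle list, stood at 153 ± 27.3 CPM in 8wk STZ, 110.5 ± 7.62 in 4wk STZ and 92.2 ± 24.0 in Control (n = 4, 3 and 3). The nearest to Ccnl1 were Slc25a37 (0.329), Rgl2 (0.372), Wdfy1 (0.403), Clk4 (0.46) and Atp13a2 (0.465), against a median of 0.992. Slc25a37, a mitochondrial iron importer, was at 36.0 ± 4.11 CPM in 8wk STZ, 12.4 ± 1.82 in 4wk STZ and 12.7 ± 3.95 in Control (n = 4, 3 and 3). Among the 8 genes, Clk1 and Ccnl2 were nearest to each other (0.261), as were Clk3 and Srpk1 (0.173), and Ccnl1 and Srpk2 were furthest apart (1.02). Since the measure depends on the size of the differences, genes that vary little come out near each other even where their patterns differ. Srpk2, whose groups all overlapped, was likewise nearest to Clk3 (0.254).

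**Figure D5:**
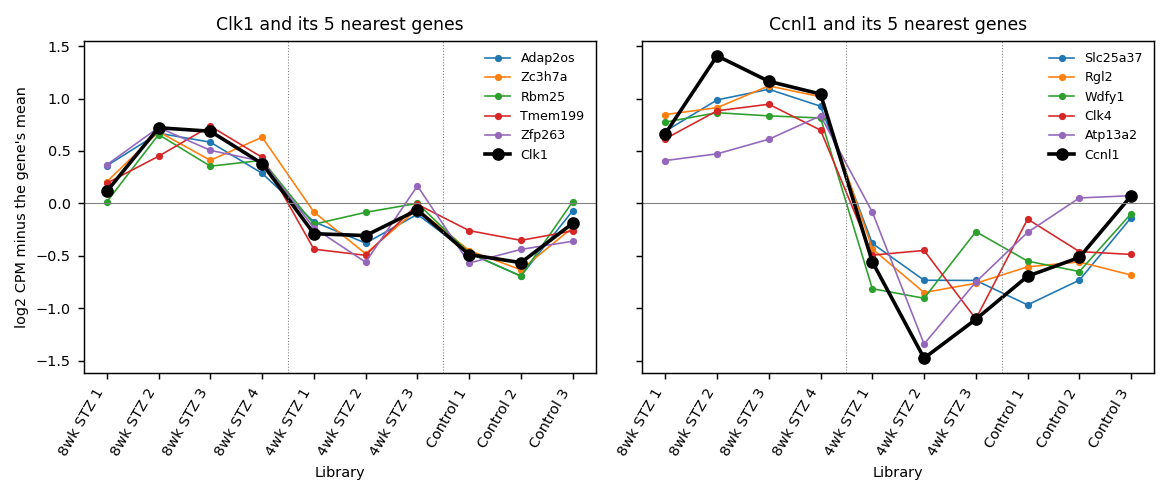
Log2 CPM minus the mean of each gene (y axis) in the 10 libraries (x axis), for Clk1 with its 5 nearest genes and for Ccnl1 with its 5 nearest genes. Lines join libraries to guide the eye, and dotted lines part the groups. Clk1 and its neighbours lie above 0 in all 8wk STZ libraries, and Ccnl1 falls below its neighbours in 4wk STZ 2.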

How the data were processed

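Microglia sorted from mouse retinas were profiled by RNA-seq in 10 libraries, 1 per animal. The deposited table holds raw read counts per gene, per the file headers. GRCm38, the aligner STAR, featureCounts of Subread, Salmon, bcl2fastq, limma and edgeR appear in the submitters' processing notes. Which annotation and strand setting served for counting, and how multi-mapping reads were treated, is not given in the sources used here. The authors' deposited comparison table gives log2 fold changes, mean log2 CPM, a likelihood ratio score, p-values and false discovery rates. From it, 1 count and 1 rate are printed, and 1 numeric column of the count table, the number of transcripts, was not used.

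Of 55774 entries, 287 repeated an identifier and were dropped. After filterByExpr and TMM scaling, a model with a mean for each of the 3 groups was fitted to the 10 libraries (edgeR 4.0.16, R 4.3.3), which left 7 residual degrees of freedom. The robust quasi-likelihood F-test was adjusted by Benjamini-Hochberg over all tested genes, and genes with an adjusted p below 0.05 were called. P-values of this test set a difference between groups against the spread between animals. That spread was pooled over the 3 groups, with information shared across genes. Each SE of a log2 fold change is its absolute value divided by the square root of the F statistic. Errors of levels are SD, and log2 CPM used a prior count of 2. The steps were checked on simulated data with changes placed in the 4wk STZ libraries. This covered the sign of the fold changes and, for the larger changes, their median size. Recovery at the adjusted p threshold was not a condition of the check. Alternatives used DESeq2 1.42.0 and limma 3.58.1, other scalings and filters, thinned counts, a replicate block and fits without single libraries. No 2 libraries of a group agreed within sampling noise (chi-square over degrees of freedom 48.2 or more).

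The 8 genes and all lists were chosen with earlier results of these data known. Named list genes are those called at 8 weeks, up to 6 by smallest p, or else the 2 most abundant. Other list genes given as values were named after their values were seen, and so were the pair ratios. Likeness names the 5 nearest genes to Clk1 and to Ccnl1.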

Additional observations from a re-analysis of the deposited data

Results flagged for a closer look

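For Clk4 and Ccnl1, every 8wk STZ library lay above the Control mean and every 4wk STZ library below it. At 4 weeks the libraries of both genes overlapped with Control and neither gene passed (adjusted p = 0.695 for Clk4 and 0.487 for Ccnl1, edgeR's quasi-likelihood test), so no change at 4 weeks is shown. The log2 fold change of 8wk STZ against 4wk STZ was 1.45 for Clk4 (1.27 to 1.56 with 1 library left out) and 2.10 for Ccnl1 (1.90 to 2.38). These differences were not tested, since the genes were picked for their rise at 8 weeks. The same difference for Srsf2 passed its test (log2 fold change 2.29, adjusted p = 0.00217, edgeR's quasi-likelihood test). The list that holds Srsf2 was itself chosen with earlier results of these data known, so this is no independent check of Clk4 and Ccnl1. In Smg1, 8wk STZ 1 stood apart from the other 3 libraries of its group, with a gap of 0.875 of the group's range, above the 95% critical value of Dixon's test for 4 libraries. Of 29 genes examined in this way 1 stood out, and chance gives about 1 in 20.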

How the results depend on the processing

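The log2 fold changes of the 8 genes at 8 weeks against Control were refitted under 12 other settings and without each library (10 fits). All moved by less than the SD of single libraries within groups. This is a lenient yardstick, since leaving out 1 library shifts a group mean by only a part of that library's deviation. With 1 library left out, the log2 fold change of Ccnl1 ran from 1.29 to 1.7 and that of Clk4 from 1.09 to 1.27. That of Clk1 ran from 0.82 to 1.02 and that of Clk3 from 0.15 to 0.50. For Srpk2 it ran from -0.29 to 0.0039, so its sign changed. At 4 weeks none of the 8 passed under any setting (adjusted p of Srpk1 0.175 to 0.73, of Ccnl1 0.277 to 0.847), and values near 0 changed sign. Clk3 was at -0.0069 without a filter, -0.0059 without Control 3 and 4wk STZ 3, and -0.14 to 0.21 with 1 library left out. Ccnl2 was at -0.065 with limma-voom, -0.18 without Control 3 and 4wk STZ 3, and -0.21 to 0.28 with 1 library left out, and Clk2 ran from -0.28 to 0.0098. The count of calls over all genes depended on the test and on single libraries. Against the 449 calls at 8 weeks, DESeq2 gave 1451, the likelihood ratio test 1166, the fit without Control 3 and 4wk STZ 3 gave 275, and fits without 1 library 206 to 462. At 4 weeks, DESeq2 gave 314, the likelihood ratio test 244, no filter 12, and fits without 1 library 0 to 1. For 8wk STZ against 4wk STZ, with 174 calls, no filter gave 277, a filter of 1 CPM in 3 libraries 294, DESeq2 1004, the likelihood ratio test 759, only the 2 groups compared 100, without Control 3 and 4wk STZ 3 6, and fits without 1 library 13 to 118. Of the 80 tested genes in the 7 lists, 6 were called at 8 weeks, against 11 with library totals as the only scaling, 13 without a filter, 10 with the CPM filter, 22 with DESeq2, 19 with the likelihood ratio test, 11 with limma-voom and 3 to 7 with 1 library left out. Rises made up 41.0% of the calls at 8 weeks, 66.1% with library totals, 30.9% with upper-quartile scaling and 53.7% with the likelihood ratio test. Libraries with the same replicate number did not deviate together (r = -0.03 to 0.03, against -0.04 to 0.04 for other pairs). No pairing by number was seen, but so few libraries per group cannot show that there is none. With the replicate block, in which 8wk STZ 4 carries no information, 44 genes were called at 8 weeks, 0 for 8wk STZ against 4wk STZ and 2 in the lists. Srsf2 then had an adjusted p of 0.0225 against Control and 0.0742 for 8wk STZ against 4wk STZ. The causes of these changes were not tested.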
